A study of Mus musculus with 8 samples.

Results

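The genes described here are 9 components of adrenergic receptor and cAMP signalling in brown adipose tissue (BAT): the receptors Adrb1, Adrb3 and Adra1a, the adenylyl cyclases Adcy3 and Adcy6, the protein kinase A (PKA) regulatory subunit Prkar2b, the cAMP phosphodiesterases Pde3b and Pde4d, and the regulator of G protein signalling Rgs2. They were chosen by symbol and for their function, with earlier results of these data known, and are 9 of the 49452 genes in the table. Counts set beside a background therefore describe them and are no independent test. BAT was taken from male C57BL/6 mice in 2 separate experiments with 2 libraries per group. In the cold experiment, young adult mice were kept at 22 °C (replicates 4 and 7) or exposed to 4 °C for 24 h (replicates 2 and 11), and the cold-exposed mice were fasted for the last hours. Fasting of the mice at 22 °C is not described. In the diet experiment, older mice were fed a control diet (NCD, replicates 6 and 8) or a high-fat diet (HFD, replicates 2 and 6) for several months. The labels call the control food normal chow, whereas the study's text calls it matched in micronutrients. No group carried a transgene or deletion. Values are FPKM, fragment counts scaled for transcript length and for the mapped fragments of the library.

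BAT burns lipid to make heat when sympathetic nerves release noradrenaline. Beta-adrenergic receptors couple through the stimulatory G protein to adenylyl cyclases, which make cAMP. cAMP frees the catalytic subunits of PKA from their regulatory subunits, and PKA then drives lipolysis and the transcription of thermogenic genes such as Ucp1. Phosphodiesterases break cAMP down, while RGS proteins shorten the signal of G proteins. Alpha1-adrenergic receptors such as Adra1a signal through calcium instead.

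All the brown adipocyte markers checked (10, among them Ucp1, Cidea and Prdm16) were above 0 in every library, with a summed level of 3849 to 10492 FPKM. Other cell types also moved with the groups. The 11 skeletal muscle markers summed to 117 and 569 FPKM at 22 °C against 1981 and 4561 FPKM at 4 °C (11 of 11 higher in both cold libraries), and to 576 and 1525 with NCD against 15.5 and 185 with HFD (10 of 11 lower in both HFD libraries). The 6 macrophage markers summed to 38.4 and 108 FPKM with NCD against 189 and 242 with HFD. The 4 white adipocyte markers summed to 1.66 and 4.71 FPKM with NCD against 63.6 and 84.4 with HFD, nearly all of the latter from the hormone gene Lep (log2 fold change 5.005, adjusted p 0.0425), while Hoxc9 and Tcf21 were at or near 0 in all 8 libraries. The part of these cells in the results below was not tested, and in bulk tissue fewer cells of a type and less RNA per cell cannot be told apart. In each group 1 library carried the satellite-repeat transcript Gm10800 at over 100 FPKM (22 °C replicate 4, 4 °C replicate 11, NCD replicate 8 and HFD replicate 2) and the other at no more than 4.13 FPKM. The former are satellite-high and the latter satellite-low libraries, and this split is the library type. Fragments behind a value were estimated from the FPKM and the longest transcript, as depth is not given. The fewest were 296, for Adrb1 in 4 °C replicate 2, and the most were 132000, for Adcy3 in 4 °C replicate 11.

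Prkar2b was the most abundant of the 9 genes, with a mean of 203.8 FPKM over the 8 libraries. Adcy3 followed with 83.1 FPKM, then Pde3b with 60.1, Adrb3 with 51.1 and Pde4d with 36.5 FPKM. Rgs2, Adcy6 and Adra1a had means of 17.9, 15.7 and 15.3 FPKM, while Adrb1 had 2.86 FPKM. Adcy3 also varied the most between libraries, its highest value being 14.3 times its lowest, while Prkar2b varied the least (1.39 times).

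**Figure D1:**
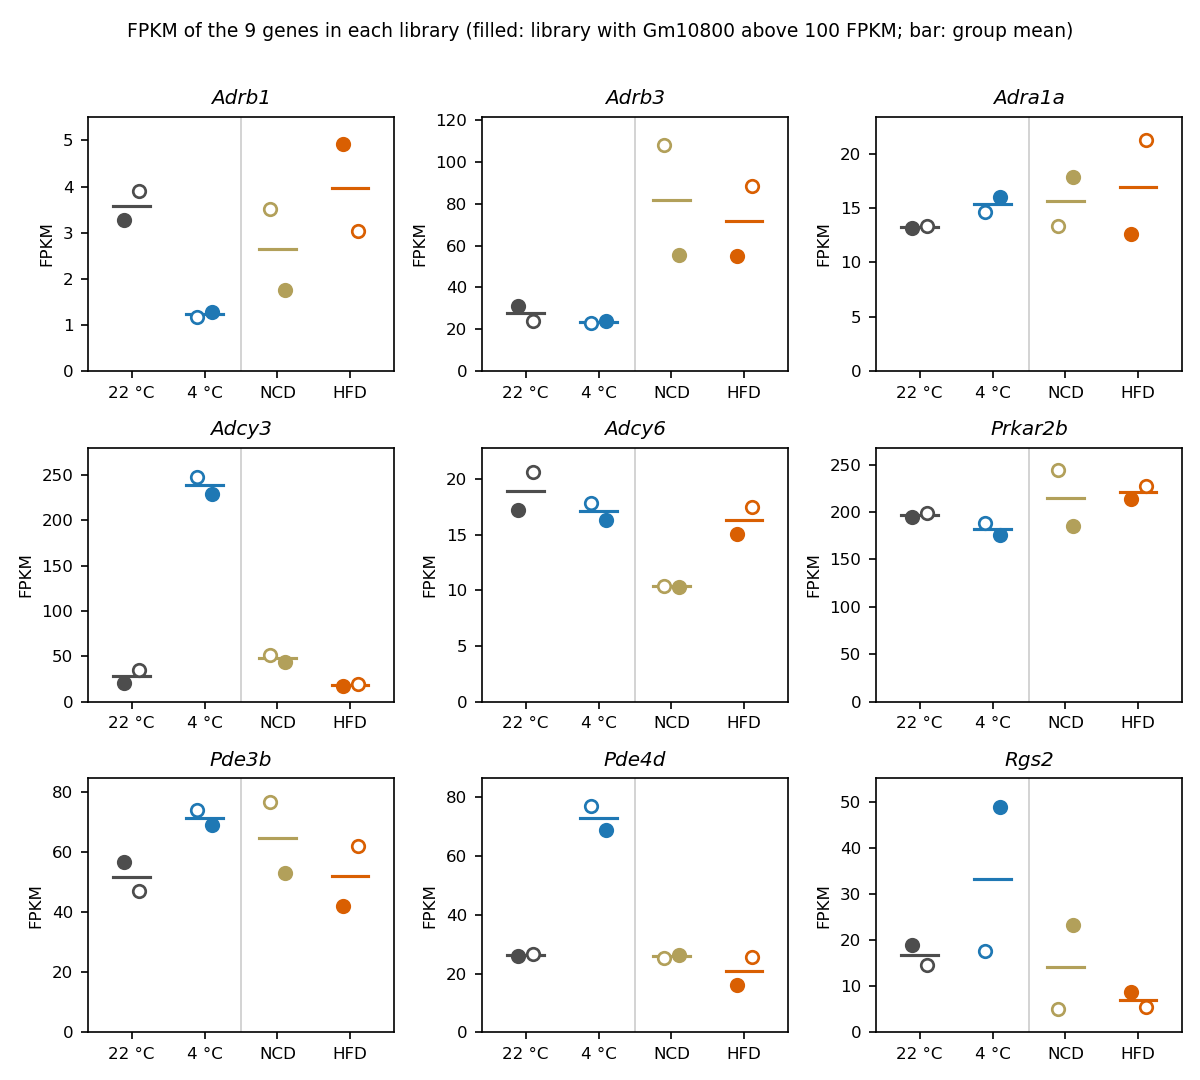
FPKM (y axis, linear from 0) of the 9 genes in each of the 8 libraries, by group (x axis). Points are libraries, filled where the satellite transcript Gm10800 exceeded 100 FPKM, and bars are group means. The cold libraries stand apart for Adcy3 (229 and 248 FPKM against 20.5 and 35.4) and Pde4d (68.9 and 76.9 against 25.8 and 26.8).

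Of the genes with a promoter window, the start regions of the 4 whose levels varied most are shown because a transcription factor family activated by PKA, CREB, binds the cAMP response element (CRE). RefSeq promoter windows (GRCm38.p6) were at hand for 5 of the 9 genes, in 7 windows. Adrb3, Adra1a, Adcy6 and Pde3b were not matched. The 250 bases before each start were searched on both strands for the full CRE, TGACGTCA, and for its core, TGACG, which the full element contains. No member window held the full CRE, which 1.55% of all 32851 windows held. Core motifs were found in 2 member windows, those of Adrb1 and Rgs2, against 17.8% of all windows. The sequences are printed 5′ to 3′ on the gene's strand, without bases that GENCODE annotates as exon, and with core motifs in capitals.
Adcy3, chr12:4133903-4134146, plus strand: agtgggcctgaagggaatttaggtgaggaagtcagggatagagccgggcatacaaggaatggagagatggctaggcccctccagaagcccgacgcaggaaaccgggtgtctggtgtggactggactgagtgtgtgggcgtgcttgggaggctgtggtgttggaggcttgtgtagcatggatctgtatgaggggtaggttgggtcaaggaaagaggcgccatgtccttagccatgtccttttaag
Pde4d, chr13:108653927-108654104, plus strand: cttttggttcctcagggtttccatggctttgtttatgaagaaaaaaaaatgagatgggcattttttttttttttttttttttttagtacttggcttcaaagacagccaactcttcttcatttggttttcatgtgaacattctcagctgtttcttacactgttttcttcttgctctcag
Adrb1, chr19:56721867-56722116, plus strand: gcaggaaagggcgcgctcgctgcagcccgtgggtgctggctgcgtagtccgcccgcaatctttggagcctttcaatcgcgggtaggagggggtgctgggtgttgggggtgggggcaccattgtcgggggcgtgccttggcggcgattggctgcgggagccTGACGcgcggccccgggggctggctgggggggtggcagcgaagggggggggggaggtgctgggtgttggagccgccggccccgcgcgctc
Rgs2, chr1:144004162-144004399, minus strand: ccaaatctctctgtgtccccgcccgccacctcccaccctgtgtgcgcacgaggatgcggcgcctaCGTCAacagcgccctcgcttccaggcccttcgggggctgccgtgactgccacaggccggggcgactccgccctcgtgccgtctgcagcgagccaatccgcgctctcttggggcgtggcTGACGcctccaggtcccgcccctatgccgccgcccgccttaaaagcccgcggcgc

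The Adcy3 stretch is intronic, before the second of its starts in the table, and the window of the first lies wholly in an annotated exon and is not printed. The Pde4d stretch is also intronic, before a start inside the gene. The stretches of Adrb1 and Rgs2 lie upstream of their genes. The Adrb1 core motif begins 90 bases before the start in the RefSeq table, which lies upstream of the GENCODE gene. Those of Rgs2 begin 185 bases (read on the other strand, CGTCA) and 67 bases before its RefSeq start. Base composition also differed, with 74.0% G and C in the window of Adrb1, 72.4% in that of Rgs2, 56.0% and 68.8% in those of Adcy3 and 38.8% in that of Pde4d (median of all windows 52.4%). Neither of the genes that rose in the cold had these letters in the searched windows. GENCODE lists 8 transcripts for Adcy3 and 20 for Pde4d, and starts outside these windows were not searched. This is a description of the letters and says nothing of the factors that bind.

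The first comparison asked how these genes respond to 24 h at 4 °C. Adcy3 and Pde4d rose, Adrb1 was lower in both cold libraries without passing the test, and Adrb3, the main thermogenic receptor, did not pass it (log2 fold change −0.22). A gene was past the threshold at an adjusted p under 0.05 (limma, Benjamini-Hochberg over all genes) and a log2 fold change of 1 or more, up or down, and fold changes are on the log2(FPKM + 1) scale. Of the 9 genes, 2 were past it, both higher, against a background of 1.44% of the 17477 genes tested. The groups did not overlap for 4 genes that were higher and 2 that were lower at 4 °C, against backgrounds of 37.9% and 20.6% of all genes. The median log2 fold change of the 9 genes was 0.20, and that of all genes averaging 1 FPKM or more was 0.20 as well.

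Adcy3 (ENSMUSG00000020654, chromosome 12, 4133103 to 4213525, plus strand) encodes an adenylyl cyclase. It had 20.5 and 35.4 FPKM at 22 °C against 248 and 229 FPKM at 4 °C, so both cold libraries lay far above both others. The mean rose 8.52-fold, from 28.0 ± 10.5 FPKM (SD, n = 2) to 238 ± 13.4 FPKM (SD, n = 2). The log2 fold change was 3.09 (SE 0.32, 95% confidence interval 2.29 to 3.90, adjusted p 0.0279 by limma). It was 3.42 between the satellite-high and 2.77 between the satellite-low libraries. The call was lost without 4 °C replicate 2 (log2 fold change 3.04, adjusted p 0.147), without 4 °C replicate 11 (3.15, adjusted p 0.0671) and without a filter on low values (adjusted p 0.282).

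Adcy3 shares 1380 of its 6246 exonic bases with Cenpo, a centromere protein gene on the opposite strand (chromosome 12, 4196004 to 4234294). Cenpo had 7.53 and 10.96 FPKM at 22 °C and 46.4 and 39.1 FPKM at 4 °C, and also passed the threshold (log2 fold change 2.11, adjusted p 0.0385). The libraries were directional, but whether strand was used for the FPKM is not given in the sources used here, so reads of the pair in the shared bases cannot be told apart. The FPKM of Adcy3 was at least 2.73 times that of Cenpo in every library.

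Pde4d (ENSMUSG00000021699, chromosome 13, 108449948 to 109953461, plus strand) encodes a phosphodiesterase specific for cAMP. It had 25.8 and 26.8 FPKM at 22 °C against 76.9 and 68.9 FPKM at 4 °C, with a narrow spread in both groups. The mean rose 2.77-fold, from 26.3 ± 0.678 FPKM (SD, n = 2) to 72.9 ± 5.68 FPKM (SD, n = 2). The log2 fold change was 1.43 (SE 0.21, 95% confidence interval 0.91 to 1.95, adjusted p 0.0467). It was 1.38 between satellite-high and 1.49 between satellite-low libraries. The call was close to the threshold and was lost without any 1 of the 4 libraries (log2 fold change 1.35 to 1.51, adjusted p 0.0594 to 0.221), with no filter on low values, after quantile normalization (0.92) and after rescaling that left out Ucp1, rRNA genes and mitochondrial genes (1.01, adjusted p 0.326).

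Adrb1 (ENSMUSG00000035283, chromosome 19, 56722372 to 56724862, plus strand) encodes the beta1-adrenergic receptor. It had 3.27 and 3.89 FPKM at 22 °C against 1.18 and 1.28 FPKM at 4 °C, so that the cold libraries were the lowest of all 8. The ratio of the means was 0.343, and the log2 fold change was −1.04 (SE 0.17, 95% confidence interval −1.47 to −0.61, adjusted p 0.0527), just outside the threshold. It was inside in 7 of 15 alternative settings, among them rescaling (−1.72) and library type as a covariate (adjusted p 0.0448, background 4.92%). It was outside with all 8 libraries and library type in 1 fit (adjusted p 0.0682), and without any 1 of the 4 libraries (log2 fold change −1.14 to −0.94, adjusted p 0.0728 to 0.194).

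Adrb3 (ENSMUSG00000031489, chromosome 8, 27225776 to 27250616, minus strand) encodes the beta3-adrenergic receptor, the main beta-receptor of rodent adipocytes. It had 31.3 and 23.8 FPKM at 22 °C against 22.8 and 23.9 FPKM at 4 °C, and the groups overlapped (log2 fold change −0.22, SE 0.22, 95% confidence interval −0.78 to 0.34, adjusted p 0.584). This value moved with scaling, to −0.68 (SE 0.26, adjusted p 0.188) after quantile normalization. It was −0.48 (SE 0.22, adjusted p 0.213) after median centring and −0.67 (SE 0.48, adjusted p 0.609) after rescaling. Without 22 °C replicate 4 it was −0.031, and without 22 °C replicate 7 it was −0.41. Adrb3 shares 839 of 3376 exonic bases with the antisense gene Gm45470, which was listed at 1.80 to 2.51 FPKM. Adra1a (ENSMUSG00000045875, chromosome 14, 66635251 to 66733462, plus strand) had 13.1 and 13.3 FPKM against 14.7 and 16.0 FPKM. Both cold libraries were higher. The log2 fold change was 0.20 (SE 0.18, adjusted p 0.545), close to its error, and turned negative after quantile normalization, median centring and rescaling.

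Adcy6 (ENSMUSG00000022994, chromosome 15, 98589994 to 98607633, minus strand), a cyclase that calcium inhibits, had 17.2 and 20.6 FPKM at 22 °C against 17.9 and 16.3 FPKM at 4 °C (log2 fold change −0.13, SE 0.20, adjusted p 0.728). The groups overlapped for this cyclase, whereas those of Adcy3 were separate. Prkar2b (ENSMUSG00000002997, chromosome 12, 31958476 to 32061296, minus strand), the main PKA regulatory subunit of adipose tissue, had 195 and 199 FPKM against 189 and 176 FPKM (log2 fold change −0.11, SE 0.25, 95% confidence interval −0.74 to 0.51, adjusted p 0.819). The level of this most abundant gene in the cold was 0.926 times that at 22 °C in FPKM as deposited. Its log2 fold change was −0.69 after quantile normalization, −0.37 after median centring and −0.56 after rescaling, and that of Adcy6 was −0.55, −0.39 and −0.58 under the same settings (adjusted p 0.106 to 0.789).

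Pde3b (ENSMUSG00000030671, chromosome 7, 114415281 to 114539251, plus strand), the phosphodiesterase through which insulin restrains lipolysis, had 56.7 and 47.0 FPKM at 22 °C against 74.2 and 69.0 FPKM at 4 °C. Both cold libraries were higher. The log2 fold change was 0.46 (SE 0.23, adjusted p 0.275), and −0.086 after quantile normalization. Rgs2 (ENSMUSG00000026360, chromosome 1, 143999338 to 144004161, minus strand), whose protein acts on G proteins and cyclases, had 19.1 and 14.7 FPKM against 17.8 and 49.0 FPKM. A single cold library, replicate 11, was high, and the groups overlapped (log2 fold change 0.79, SE 0.48, adjusted p 0.369). Without that library the log2 fold change was 0.08, and without 4 °C replicate 2 it was 1.49 (adjusted p 0.147).

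**Figure D2:**
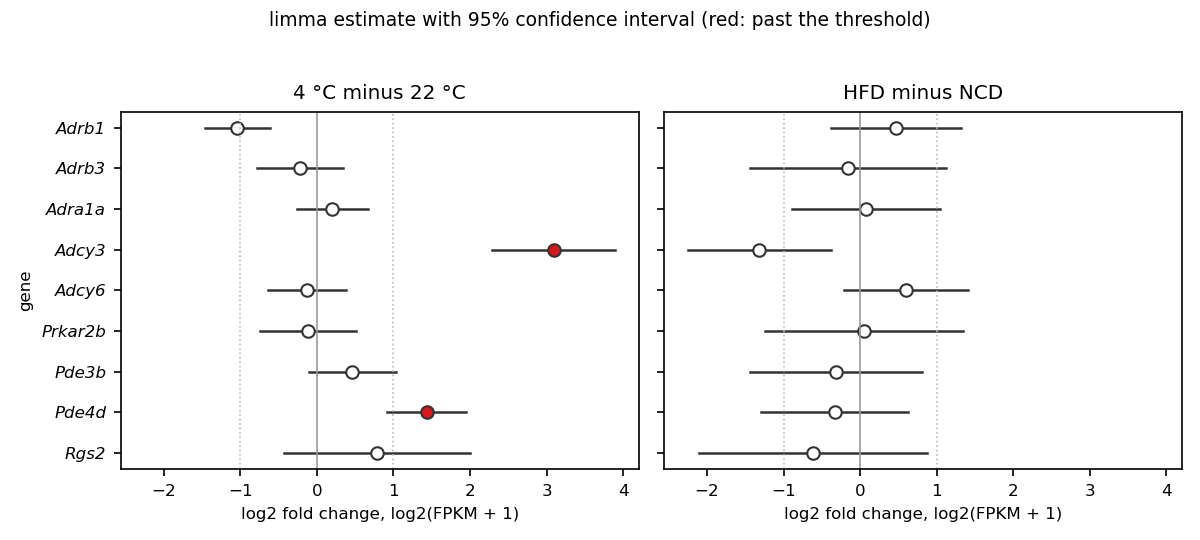
log2 fold change of log2(FPKM + 1) for the 9 genes (x axis), for 4 °C against 22 °C and for HFD against NCD. Points are limma estimates from 2 libraries per group, lines their 95% confidence intervals, red points genes past the threshold and dotted lines a log2 fold change of 1 or −1. Adcy3 (3.09) and Pde4d (1.43) are past it in the cold and no gene is with HFD.

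The second comparison asked how the genes differ after months of HFD. None of the 9 was past the threshold (limma), against a background of 0.0684% of the 17543 genes tested. At an unadjusted p under 0.05, 1 of the 9 passed, against a background of 14.4%. The groups did not overlap for 1 gene that was higher (Adcy6, background 39.9%) and 1 that was lower (Adcy3, background 5.8%) with HFD. The median log2 fold change of the 9 genes was −0.15, and that of all genes averaging 1 FPKM or more was 0.29.

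Adcy3 had 51.9 and 43.7 FPKM with NCD against 17.3 and 19.8 FPKM with HFD, so that both HFD libraries lay below every other library. The mean was 47.8 ± 5.77 FPKM (SD, n = 2) with NCD and 18.6 ± 1.79 FPKM (SD, n = 2) with HFD, a ratio of 0.388. The log2 fold change was −1.32 (SE 0.40, 95% confidence interval −2.25 to −0.38, unadjusted p 0.0124, adjusted p 0.219 by limma). It was nearly the same between satellite-high (−1.29) and satellite-low libraries (−1.34), and with library type as a covariate it passed (SE 0.18, adjusted p 0.0083, background 4.25%). Cenpo had 12.8 and 8.97 FPKM against 4.60 and 6.33 FPKM (log2 fold change −0.87, adjusted p 0.324).

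Adcy6 had 10.4 and 10.3 FPKM with NCD against 15.1 and 17.5 FPKM with HFD. The NCD libraries were the lowest of all 8. The log2 fold change was 0.60 (SE 0.35, 95% confidence interval −0.21 to 1.42, adjusted p 0.483, and 0.0529 with library type as a covariate). It was 0.32 (adjusted p 0.672) after quantile normalization and 0.25 (adjusted p 0.749) after median centring.

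Among the receptors, Adrb3 had 108 and 55.5 FPKM with NCD against 54.9 and 88.4 FPKM with HFD, a wide spread in both groups (log2 fold change −0.15, SE 0.55, 95% confidence interval −1.43 to 1.13, adjusted p 0.924). Adrb1 had 3.52 and 1.76 FPKM against 4.92 and 3.03 FPKM (log2 fold change 0.47, SE 0.36, adjusted p 0.607). Adra1a had 13.4 and 17.9 FPKM against 12.7 and 21.2 FPKM (log2 fold change 0.08, SE 0.41, adjusted p 0.949). The groups overlapped for all 3 receptors, and the 95% confidence interval of each reached past 1 on the log2 scale.

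Prkar2b had 245 and 186 FPKM with NCD against 214 and 228 FPKM with HFD (log2 fold change 0.05, SE 0.55, adjusted p 0.977). Pde3b had 76.6 and 53.1 FPKM against 42.0 and 62.2 FPKM (log2 fold change −0.31, SE 0.48, adjusted p 0.805). Pde4d had 25.3 and 26.4 FPKM against 16.2 and 25.5 FPKM (log2 fold change −0.33, SE 0.41, adjusted p 0.755). These HFD and NCD libraries were mixed in order. Rgs2 had 4.99 and 23.3 FPKM against 8.69 and 5.43 FPKM, with a 4.67-fold gap within NCD (log2 fold change −0.61, SE 0.64, adjusted p 0.709). Without NCD replicate 6 it passed the threshold (−1.62, adjusted p 0.0286), and without NCD replicate 8 the sign turned (0.40). In the labels, NCD replicate 6 carries another description code than the other 3 diet libraries, and what the code stands for is not given. All libraries of the cold experiment carry the same code as NCD replicate 6. Without it, the log2 fold change of Adcy3 was −1.20 (adjusted p 0.268) and that of Adcy6 0.61 (adjusted p 0.569).

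Rgs2 was higher in the satellite-high library in all 4 groups, which held for 4.32% of 10883 autosomal genes averaging 1 FPKM or more. In the NCD group the values were 23.3 and 4.99 FPKM, in the 4 °C group 49.0 and 17.8 FPKM. Adcy3, Adcy6 and Prkar2b were lower in the satellite-high library in all 4 groups, which held for 38.2% of these genes.

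Levels across the 4 groups describe each gene without a test, since the mice of the 2 experiments differ in age, which cannot be told apart from the experiment. The levels of Adcy3 were in the order 4 °C, NCD, 22 °C and HFD from the highest down, with no overlap between any neighbours. Adrb3 was highest with NCD (81.9 ± 37.4 FPKM, SD, n = 2) and HFD (71.7 ± 23.6), which overlapped, and lower at 22 °C (27.6 ± 5.27) and 4 °C (23.3 ± 0.756), which overlapped as well. For Pde4d only the cold group stood apart. The order for Adrb1 was HFD, 22 °C, NCD and 4 °C, and only the last pair did not overlap. For Rgs2 and Pde3b all neighbours overlapped.

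Shares within a family of genes do not change when a library's FPKM are multiplied by a constant, and they show which member supplies most of the transcripts. Per length, Adcy3 made up 39.7% and 50.5% of the summed FPKM of the 10 adenylyl cyclases at 22 °C, and 87.8% and 87.9% at 4 °C. With NCD it made up 75.6% and 71.9%, and with HFD 40.8% and 41.4%. Adcy6 took 31.3% ± 2.71 (SD, n = 2) at 22 °C and 6.31% ± 0.0447 at 4 °C, then 16.0% ± 1.22 with NCD and 36.0% ± 0.587 with HFD. Adcy9 took 14.2% at 22 °C and 2.27% at 4 °C. The family summed to 51.8 and 70.1 FPKM at 22 °C, to 282 and 260 FPKM at 4 °C, to 68.7 and 60.8 FPKM with NCD, and to 42.4 and 47.9 FPKM with HFD.

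**Figure D3:**
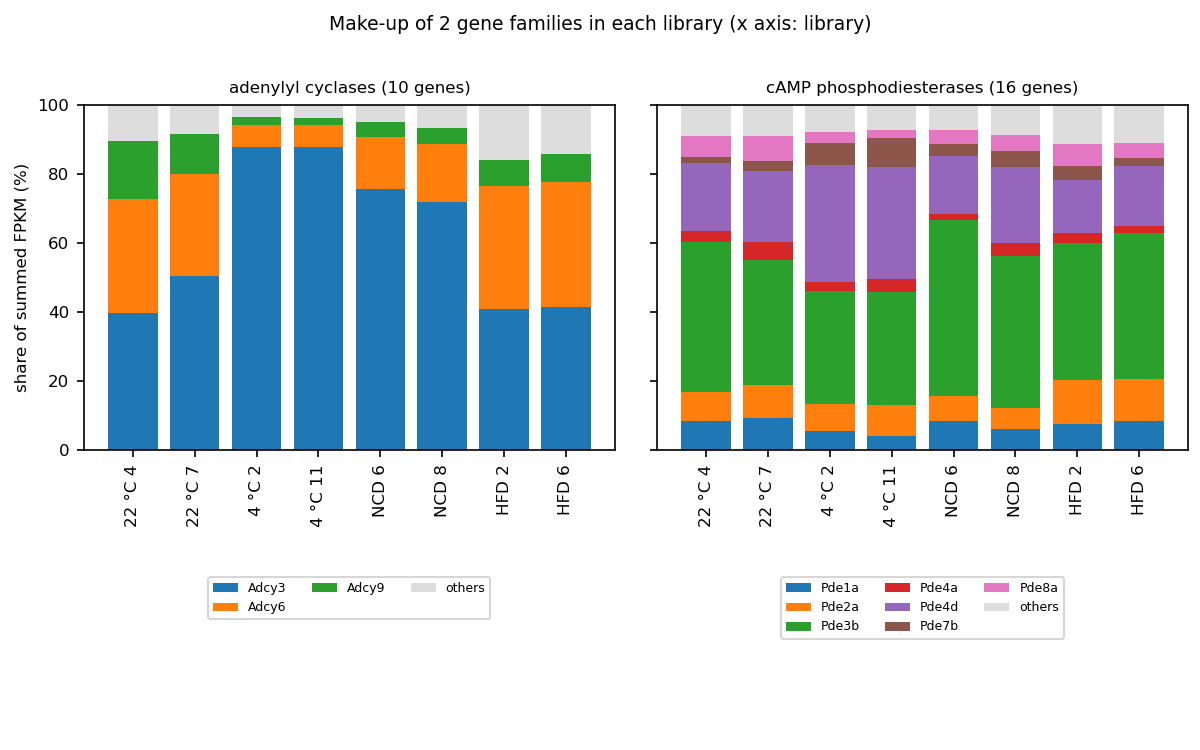
Share of the summed FPKM of a family (y axis, percent) in each library (x axis) for the adenylyl cyclases and the cAMP phosphodiesterases. Colours mark genes, and grey the genes with smaller shares. Adcy3 makes up 87.8% and 87.9% of cyclase FPKM in the 4 °C libraries and 40.8% and 41.4% in the HFD libraries.

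Of the 16 phosphodiesterases, Pde3b supplied 39.8% ± 5.01 (SD, n = 2) at 22 °C and 32.7% ± 0.163 (SD, n = 2) at 4 °C. Pde4d supplied 20.2% ± 0.651 and 33.3% ± 1.05, close to that of Pde3b in the cold. Prkar2b supplied 71.3% to 90.4% of the FPKM of the 4 PKA regulatory subunits over the 8 libraries, with its lowest share in 4 °C replicate 2, where Prkar1a supplied 23.0%.

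The 9 genes were then set beside the other genes of the pathway, 113 in 9 lists that include them. The lists were also written with earlier results of these data known. In the cold, 105 of them were tested and 6 were past the threshold, all higher, against the background of 1.44%. At an unadjusted p under 0.05, 37 passed, against a background of 24.5%. The groups did not overlap for 51 genes that were higher and 14 that were lower, against backgrounds of 37.9% and 20.6%. The split of calls moved with scaling. Quantile normalization gave 6 genes higher and 2 lower, and median centring gave 9 higher and 3 lower. The share of all genes past the threshold was not counted under these 2 settings. Of the receptors, 0 of 5 tested passed (2 at an unadjusted p under 0.05), and Adra1d had 2.82 and 3.53 FPKM at 22 °C against 1.19 and 1.26 FPKM at 4 °C (log2 fold change −0.90, adjusted p 0.0627). Of the G protein alpha subunits, 0 of 9 passed (2 unadjusted). Gnas, which encodes the stimulatory subunit, led its list with 191 and 331 FPKM at 22 °C against 546 and 437 FPKM at 4 °C (log2 fold change 0.95, SE 0.38, adjusted p 0.203). Its log2 fold change was 0.56 without 22 °C replicate 4, 0.45 after quantile normalization and 0.51 after rescaling.

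Of the 8 cyclases tested only Adcy3 passed. Adcy2 had 0.151 and 0.0958 FPKM at 22 °C against 1.60 and 0.850 FPKM at 4 °C (log2 fold change 0.97, adjusted p 0.0588 by limma). It passed in 2 of 14 alternative settings, with a pseudocount of 0.1 and after rescaling. Of the 9 PKA subunits and inhibitors, 0 passed (3 unadjusted). Of the 16 phosphodiesterases, Pde4d and Pde7b passed. Pde7b, which also breaks down cAMP, had 2.07 and 3.81 FPKM at 22 °C against 14.5 and 17.9 FPKM at 4 °C, and passed with a log2 difference of 2.16 (SE 0.28, adjusted p 0.0441). Its share of phosphodiesterase FPKM was 2.26% and 7.44%. Of the 20 desensitization genes tested (RGS genes, receptor kinases and arrestins), 0 passed (3 unadjusted). Rgs5, which pericytes also express, led that list with 55.6 and 55.1 FPKM against 38.7 and 36.0 FPKM (log2 fold change −0.56, adjusted p 0.181).

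Of the 11 A-kinase anchors, 0 passed (4 unadjusted), and Akap1, which tethers PKA to mitochondria, had 65.1 and 68.1 FPKM against 46.7 and 47.6 FPKM (log2 fold change −0.49, adjusted p 0.224). Of the 15 cAMP effectors and CREB factors, 0 passed (5 unadjusted), and Atf4 led them with 27.5 and 32.5 FPKM against 136 and 82.5 FPKM (log2 fold change 1.79, SE 0.31, adjusted p 0.0558, and past the threshold in 7 of 15 alternative settings). Of the 12 cAMP response genes, 3 passed (8 unadjusted), against backgrounds of 1.44% and 24.5%. The deiodinase Dio2 had 20.6 and 21.4 FPKM at 22 °C against 162 and 193 FPKM at 4 °C, the coactivator Ppargc1a 10.9 and 10.8 against 107 and 73.6, and the hormone Fgf21 0.061 and 0.104 against 12.6 and 5.91 FPKM. Their log2 fold changes ranged from 2.92 to 3.16 and their adjusted p from 0.0196 to 0.0299 (limma). That of Fgf21, the 3.16, rests on the pseudocount, and was 5.59 with a pseudocount of 0.1. Ucp1, the most abundant, had 699 and 1427 FPKM against 6462 and 5371 FPKM (log2 fold change 2.56, SE 0.51, adjusted p 0.0646 by limma). It passed in 5 of 15 alternative settings, among them library type as a covariate (adjusted p 0.0271, background 4.92%). With all 8 libraries and library type in 1 fit it did not (adjusted p 0.0519). The calls of pathway genes did not hold without 4 °C replicate 2 or 4 °C replicate 11. Each of these fits leaves a lone cold library, and the share of all genes past the threshold was not counted for them. The log2 fold changes of Dio2, Ppargc1a and Fgf21 were then 2.65 to 3.65.

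With HFD, 106 of the 113 genes were tested and 0 passed (limma), against the background of 0.0684%. At an unadjusted p under 0.05, 19 passed, against a background of 14.4%. The groups did not overlap for 49 genes that were higher and 10 that were lower, against backgrounds of 39.9% and 5.8% of all genes. All 8 cyclases tested were separate between the diets, 5 higher and 3 lower with HFD, with 5 of them at an unadjusted p under 0.05. Of the 20 desensitization genes tested, 12 were higher and 1 lower without overlap. These counts stand beside 39.9% of all genes higher, 5.8% lower and 14.4% at that p. With library type as a covariate 8 pathway genes passed (background 4.25%), of which Adcy5, Akap2, Arrb2, Atf4, Gnai2, Rgs1 and Rgs10 were higher and Adcy3 was lower with HFD. All 6 macrophage markers were also higher in both HFD libraries, and their part in this count was not tested. Ucp1 had 3519 and 2300 FPKM with NCD against 2026 and 2976 FPKM with HFD and overlapped (log2 fold change −0.21, adjusted p 0.930).

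**Figure D4:**
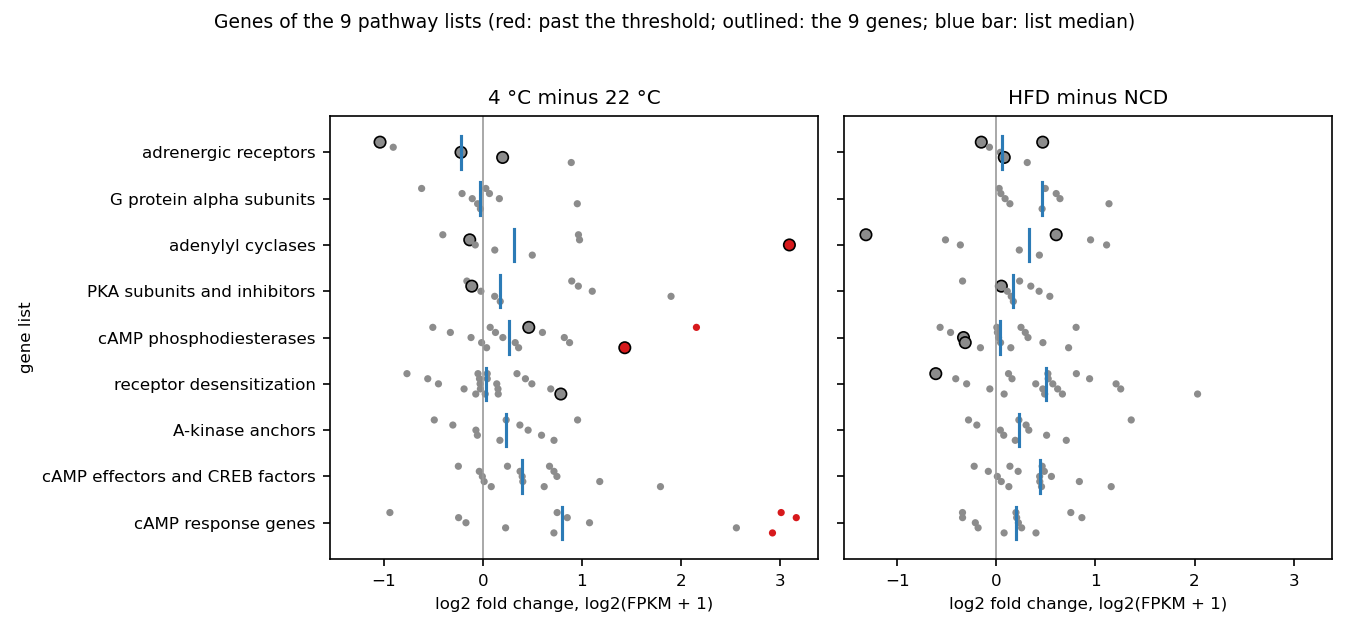
log2 fold change of log2(FPKM + 1) (x axis) of each tested gene in the 9 pathway lists (y axis), for 4 °C against 22 °C and HFD against NCD. Red points are past the threshold, outlined points are the 9 genes, and blue bars are list medians. In the cold, 6 points are red, all to the right, and with HFD 0 are.

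Genes with a profile most like each member were sought over the 8 libraries, for the 5 members whose log2(FPKM + 1) varied by an SD of at least 0.5. Likeness was the root mean square difference in log2(FPKM + 1) after centring, over 9922 autosomal protein-coding genes. The nearest to Adcy3 was its overlapping neighbour Cenpo (0.40), then Lrrc52 (0.46), which had 0.540 and 0.704 FPKM at 22 °C against 12.9 and 9.40 FPKM at 4 °C. The nearest to Pde4d were Myrip (0.14) and Pank1 (0.20). Pank1, a pantothenate kinase of coenzyme A synthesis, had 56.5 and 54.1 FPKM against 156 and 142 FPKM in the cold. The nearest to Adrb1 were Gbp7 (0.18) and Bhlhe41 (0.19), to Adrb3 Wdfy1 (0.25) and Sgms2 (0.33), and to Rgs2 Synm (0.31) and Irs2 (0.38). Among these, Wdfy1 had 1.37 to 1.69 FPKM in the cold experiment and 4.99 to 7.05 FPKM in the diet experiment, split between the experiments as Adrb3 was. These are descriptions over 8 libraries that share 2 experiments.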

How the data were processed

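The 9 genes, the pathway and marker lists and the rules for naming genes were chosen with earlier results of these data known. The named genes are the 9 members, pathway genes past the threshold (at most 3 each way per list), the gene with the highest mean FPKM of each list, and nearest profiles. Cenpo, Adra1d, Adcy2, Adcy9, Prkar1a and the pathway genes that passed with HFD under the covariate were named after their values were seen.

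The deposited values are FPKM, made by the authors per gene and library without pooling. They depleted rRNA, made directional libraries, mapped reads to GRCm38 with TopHat2 2.0.10 and quantified Ensembl genes with Cufflinks (2.2.1 in the submitters' processing notes, which also name STAR without a role). Their count test was not repeated, as counts were not used here. Of 49452 genes, 49109 matched GENCODE M21, which gave positions.

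The test was limma 3.58.1 (R 4.3.3) on log2(FPKM + 1), two-sided, within the 4 libraries of a comparison and without covariates, on autosomal genes with at least 0.1 FPKM in at least 2 libraries. X, Y and mitochondrial genes were left out because 3 libraries list all X and Y genes at 0. Fold changes of low genes are understated. The script was tested on simulated data. Alternatives changed the pseudocount, the filter, the scaling, the covariate, the libraries fitted together and the libraries left out. Another used the adjusted p alone in the reported fit, which a gene past the threshold had to pass. Another kept X, Y and mitochondrial genes, and the adjusted p of Adcy3 in the cold was then 0.0074 (limma) at the same log2 fold change. Both are counted in the tallies of alternative settings. Groups hold 2 libraries, for which an exact permutation test cannot go below p = 0.333, and nothing says that they are pools or repeats of an animal. P-values measure only the spread between these libraries, and limma draws each gene's variance toward a trend over all genes tested. The SEs therefore depend on the other genes as well. In the cold, that of Pde4d was 0.21 in the reported fit and 0.087 with no filter on low values. Depth is not given. Low values fell on whole fragments in 97.7% to 98.7% of cases (within 0.1 fragment), and 1 fragment on 2000 bases was worth 0.00438 to 0.00603 FPKM, which covers counting error only. Strand use is not given in the sources used here.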

Additional observations from a re-analysis of the deposited data

How the results depend on the processing

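No pairing by replicate number was possible because 22 °C and 4 °C share no number, and NCD and HFD share only number 6. With 2 libraries in a group, leaving out 1 leaves a lone library that is assumed to vary like the other group. In the cold, the count of the 9 genes past the threshold was 2, and 2 or 3 in the other settings except 0 with no filter on low values and 0 to 1 when a library was left out. The count of pathway genes was 6. It was 0 with no filter, 10 with a filter at 1 FPKM, 10 with X, Y and mitochondrial genes kept, 12 after median centring, 12 with library type as a covariate, 10 with all 8 libraries and library type in 1 fit, and 0 to 6 with a library left out. With HFD, the count of the 9 genes was 0, but 1 with library type as a covariate, 1 with all 8 libraries and library type in 1 fit, and 0 to 1 with a library left out (Rgs2, without NCD replicate 6). The count of pathway genes with HFD was 0, but 8 with library type, 1 with all 8 libraries in 1 fit, 8 with both, and 1 to 5 with a library left out. The share of all genes past the threshold was counted only for the reported fit and for library type as a covariate. Under the other settings a moved count is therefore not a result about these genes. The cause was not tested.

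Fold changes that turned in sign were of genes that did not pass in the reported fit, and of these Rgs2 with HFD passed without NCD replicate 6 (−1.62, adjusted p 0.0286). In the cold, Adra1a was −0.18 after quantile normalization, −0.058 after median centring and −0.23 after rescaling without mitochondrial, rRNA genes and Ucp1, and Pde3b was −0.086 after quantile normalization. Other values in the cold moved by over 1.5 times with their sign kept. Under quantile normalization and rescaling, Rgs2 was 0.38 and 0.37, Rgs5 −1.05 and −1.01, and Akap1 −1.01 and −0.94. Pde3b was 0.21 after median centring and 0.022 after rescaling. Rescaling also gave −1.72 for Adrb1 and −1.56 for Adra1d. Without 1 library, values ran from −0.41 to −0.031 for Adrb3, −0.26 to −0.0089 for Adcy6 and −0.16 to −0.061 for Prkar2b. With HFD, Adrb1 was between 0.11 and 0.82, Pde3b between −0.67 and −0.04 and Pde4d between −0.69 and −0.02 over the alternatives. With HFD, quantile normalization gave −0.21 for Adra1a, −0.0071 for Prkar2b, −0.024 for Gnas and 0.0091 for Ucp1. Median centring gave −0.27 for Adra1a, −0.30 for Prkar2b, −0.33 for Gnas, −0.13 for Fgf21 and −0.042 for Adra1d. Rescaling gave −0.085 for Adra1a, −0.12 for Prkar2b and −0.14 for Gnas. With a library left out, values ran from −0.63 to 0.32 for Adrb3, −0.27 to 0.43 for Adra1a, −0.15 to 0.25 for Prkar2b, −1.62 to 0.40 for Rgs2, −0.52 to 0.094 for Ucp1 and −0.22 to 0.27 for Gnas. Adcy3 was between 2.62 and 3.47 in the cold over the 15 alternatives and passed in 12, Pde4d between 0.92 and 1.51 and passed in 8, and Adcy3 with HFD between −1.67 and −1.20 and passed in 2. These tallies hold the setting with adjusted p alone, which Adcy3 and Pde4d had to pass in the cold. Shares within a family do not change when a library is multiplied by a constant. They were not recomputed after quantile normalization or median centring.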
